A study of Mus musculus with 3 samples.

Results

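The beta-globin locus of the mouse was described through the CTCF peaks of LSK cells that lie within 150 kb of its genes. The genes are Hbb-bt, Hbb-bs, Hbb-bh2, Hbb-bh1 and Hbb-y, and the interval runs from 150 kb before the first to 150 kb after the last of them, chr7:103662524-104003216 of mm10 (340.7 kb), with genes taken from GENCODE M21. It holds 4 of the 18945 peaks, named peak A to peak D here in order of position. Of the 35 gene records in the interval, 24 are olfactory receptor records, 19 of them typed as protein-coding, 7 are beta-globin records including the pseudogenes Hbb-bh3 and Hbb-bh0, and 4 are other pseudogenes. The peaks come from 1 CTCF ChIP-seq library of Lin-, Sca1+, cKit+ (LSK) bone marrow cells of adult C57BL6 mice with no genetic change or treatment in the labels. The sort kept cKit+ and Sca1+ cells and took out those with CD4, CD8, CD11b, CD45R, IL7Ra, Ly6g or Ter119, so the gate leaves out Ter119+ erythroid cells. The study also has an LSK input and an input of megakaryocyte erythroid progenitors (MEP), which were not analyzed here. With 1 library there is no replicate, no spread between samples can be given, and no value below carries a test. The gate was not checked against markers, since a peak list holds no expression.

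Hbb-bt and Hbb-bs encode the adult beta chains of hemoglobin, and Hbb-bh1 and Hbb-y encode embryonic beta-like chains. All of the beta-globin genes are on the minus strand, so that the side of higher coordinates is upstream, and the locus control region, the group of enhancers on which high expression in erythroid cells depends, lies upstream of Hbb-y. CTCF is a zinc finger protein that binds an asymmetric motif, blocks enhancers from acting across it at insulators, and with cohesin holds the bases of chromatin loops, which often have motifs that point toward each other. Hypersensitive sites on both sides of the mouse cluster are known to bind CTCF in erythroid cells, and beyond them lie olfactory receptor genes, which are used in sensory neurons of the nose. LSK cells include the blood stem cells and stand before the erythroid lineage.

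The sequences give the best motif match under each peak, which is a prediction and not a measured contact of CTCF. Each line gives the 32 bases around the best match to a CTCF matrix, read on the strand of the motif, with the 12 bases of the CTCF core motif in capitals. The matrix was built from core motif sites without a mismatch in peaks of the other chromosomes, so each core mismatch strongly lowers the score. A score (log2 odds) of 7.39 was exceeded by 5% of windows placed 10 kb away on both sides of each peak. The best matches of peaks A, B and D are above that limit, and the best match of peak C is below it and is shown for contrast.
Peak A, plus strand, chr7:103712177-103712208: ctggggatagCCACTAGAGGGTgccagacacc
Peak B, minus strand, chr7:103807064-103807095: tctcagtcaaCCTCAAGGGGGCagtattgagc
Peak C, minus strand, chr7:103873492-103873523: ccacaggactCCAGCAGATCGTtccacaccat
Peak D, minus strand, chr7:103942933-103942964: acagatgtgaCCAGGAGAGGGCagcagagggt
Peaks A, B and D each had 1 mismatch to the core motif, and the fewest in peak C was 2. Site B shared 13 of 32 bases with site A, 16 with site D and 10 with the match of peak C, and sites A and D shared 15. Within the 12 core bases, A and B shared 8, A and D 9, and B and D 8.

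**Figure D1:**
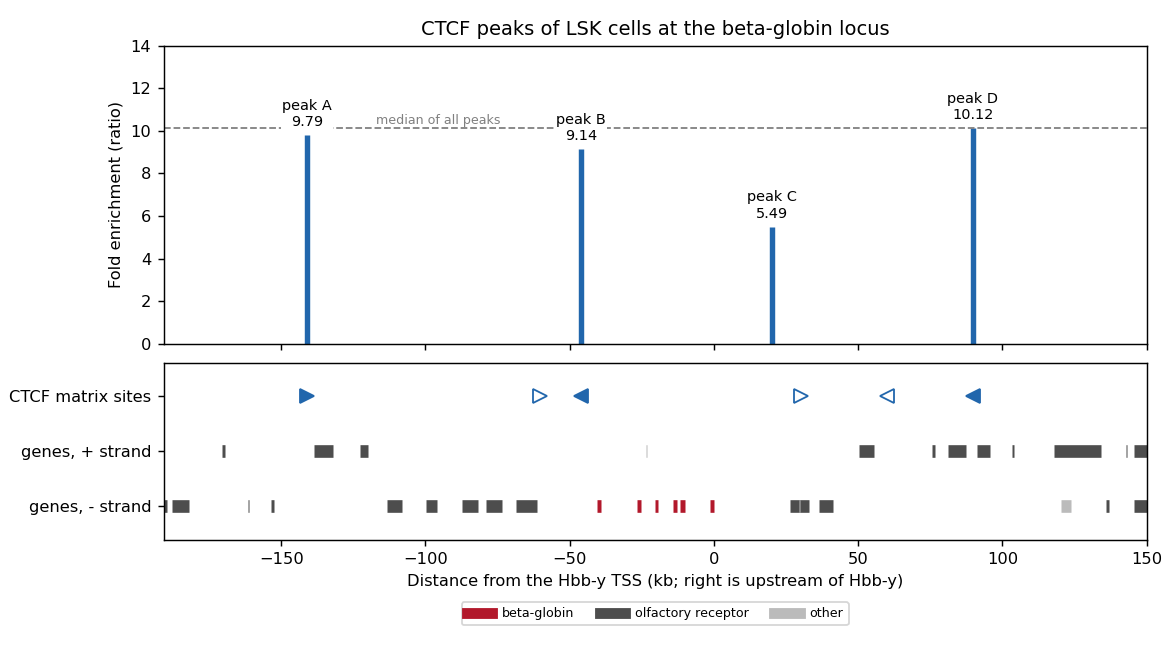
CTCF peaks and sites across the beta-globin interval, by distance from the Hbb-y TSS in kb (x axis, upstream to the right). Upper panel: bars give the authors' fold enrichment of each peak, from 5.49 to 10.12, beside the median of all peaks (dashed). Lower panel: genes by strand, and matrix sites above the limit as triangles that point in the direction of the motif, filled for the 3 in a peak and open for the 3 outside one. No peak lies among the beta-globin genes.

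No CTCF peak lay among the beta-globin genes themselves. The span from the end of Hbb-bt to the TSS of Hbb-y, 40.7 kb, held 0 peaks, as did 73.4% of the 3484 stretches of that length on Chromosome 7, so that a span without a peak is the common case. The nearest peaks stood on either side. Peak B was 5085 bp beyond the end of Hbb-bt, and peak C was 19776 bp upstream of Hbb-y. All 4 peaks lay between genes and overlapped no exon or intron.

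Peak B (chr7:103806786-103807438, 653 bp) was on the downstream side of the cluster, between Olfr67 and Hbb-bt. Its fold enrichment was 9.14 and its −log10 p-value 8.745. Of all peaks, 38.2% had a lower fold enrichment and 29.5% a lower −log10 p-value, so that it ranked below the middle on both. Its motif was on the minus strand, 32 bp from the midpoint of the peak, and pointed away from the globin genes, toward Olfr67. The matrix score was 10.97, above 46.2% of all peaks and 98.1% of the windows to their sides. The sequence of its center follows on the plus strand, since it is the peak closest to a beta-globin gene, with the core motif (here as its reverse complement) in capitals.
Peak B, plus strand, chr7:103806930-103807229: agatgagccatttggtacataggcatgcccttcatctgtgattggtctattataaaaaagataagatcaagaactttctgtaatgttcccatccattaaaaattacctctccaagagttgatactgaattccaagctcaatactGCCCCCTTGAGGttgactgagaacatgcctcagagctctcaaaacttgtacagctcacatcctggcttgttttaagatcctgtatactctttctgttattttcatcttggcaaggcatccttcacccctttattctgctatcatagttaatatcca

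Peak C (chr7:103872993-103873611, 619 bp) was on the upstream side, between Hbb-y and Olfr66. It was the weakest of the 4, at a fold enrichment of 5.49 (−log10 p-value 5.159). Only 2.21% of all peaks had a lower fold enrichment and 1.74% a lower −log10 p-value. It was also the peak of the interval without a match above the limit. Its best score was −7.57, below that of all but 3.42% of peaks, while 62.7% of the side windows had a lower one, and that match lay 205 bp from the midpoint. In the central 200 bp the fewest mismatches to the core motif were 3. A site with 1 mismatch on the minus strand (chr7:103874644-103874655) lay 1033 bp outside the peak, with a score of 6.61. A second matrix, retrained on the best match in the center of every peak of the other chromosomes after the data were seen, gave 6.36 for peak C against a limit of 16.37, and 20.89, 19.49 and 20.3 for peaks A, B and D. The center of peak C is printed without capitals, since it holds no match above the limit.
Peak C, plus strand, chr7:103873153-103873452: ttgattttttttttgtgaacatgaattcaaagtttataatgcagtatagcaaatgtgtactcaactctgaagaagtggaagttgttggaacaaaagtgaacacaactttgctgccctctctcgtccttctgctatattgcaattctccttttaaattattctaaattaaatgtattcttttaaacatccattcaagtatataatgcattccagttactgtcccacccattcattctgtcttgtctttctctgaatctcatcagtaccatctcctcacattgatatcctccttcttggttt

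Peaks A and D were in the olfactory receptor genes on either side. Peak A (chr7:103711820-103712581, 762 bp) lay between Olfr260-ps1 and Olfr243, 141.0 kb downstream of the start of Hbb-y, and reached a fold enrichment of 9.79 (−log10 p-value 9.252). These values were above 44.9% and 32.7% of all peaks. Its motif, on the plus strand and 8 bp from the midpoint, scored 12.3 and pointed toward the globin genes. Peak D (chr7:103942616-103943337, 722 bp) lay between Olfr632 and Olfr633, 89.8 kb upstream of the Hbb-y TSS. Its fold enrichment of 10.12 was the highest of the 4 and equal to the median of all peaks, and its −log10 p-value was 8.984. Its motif, on the minus strand and 28 bp from the midpoint, scored 13.45 and also pointed toward the globin genes. The outer pair thus had motifs that faced each other across 230.8 kb and across all 7 beta-globin records. Peak A alone had its best match on the plus strand, so that it faced peak B and the match of peak C as well. No share of facing pairs was computed for peaks that are not neighbors, and a loop between peaks was not tested. The centers of peaks A and D are shown as the ends of the 230.8 kb stretch.
Peak A, plus strand, chr7:103712043-103712342: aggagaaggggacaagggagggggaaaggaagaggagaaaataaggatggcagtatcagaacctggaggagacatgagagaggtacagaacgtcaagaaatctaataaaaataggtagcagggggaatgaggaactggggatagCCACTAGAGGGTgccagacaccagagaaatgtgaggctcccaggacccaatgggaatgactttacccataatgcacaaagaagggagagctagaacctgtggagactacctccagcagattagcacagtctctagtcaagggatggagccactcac
Peak D, plus strand, chr7:103942799-103943098: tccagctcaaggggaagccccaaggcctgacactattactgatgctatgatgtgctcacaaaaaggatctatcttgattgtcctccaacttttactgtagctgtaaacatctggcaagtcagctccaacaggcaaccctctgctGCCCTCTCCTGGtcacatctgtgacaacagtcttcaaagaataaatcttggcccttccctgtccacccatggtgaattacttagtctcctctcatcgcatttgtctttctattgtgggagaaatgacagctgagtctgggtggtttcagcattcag

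By fold enrichment the peaks ranked 699 (D), 726 (A), 806 (B) and 1307 (C) of the 1339 peaks of Chromosome 7. Peaks A, B and D thus spanned 9.14 to 10.12, and peak C stood apart at 5.49. All 4 were outside the 50% of peaks with the highest −log10 p-value, where the lowest value was 12.617. Their medians were 9.465 for the fold enrichment and 8.8645 for the −log10 p-value, beside 10.12 and 12.617 over all peaks. The sequence under them had a median GC content of 41.1%, beside 47.0% over all peaks, and 28.5% of its bases were masked as repeats, beside 14.2%. The core motif without a mismatch was in 0 of the 4 peaks, and in 35.6% of all peaks. With 1 mismatch allowed it was in 3 of 4, and in 83.6% of all peaks. A match above the matrix limit was in 3 of 4, and in 73.3% of all peaks. With 4 peaks these shares are only counts.

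**Figure D2:**
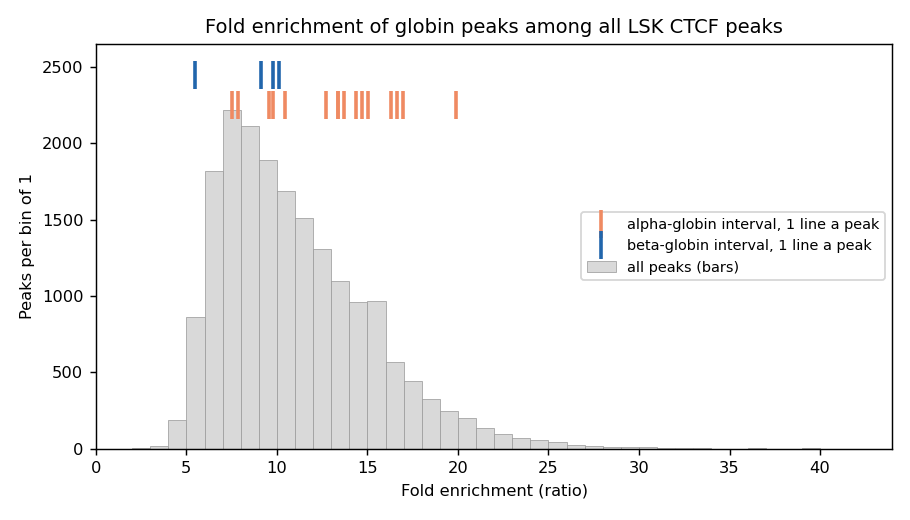
Fold enrichment (x axis, a ratio) of all 18945 peaks, as the number of peaks per bin of 1 (bars, y axis), with lines for the single peaks of both globin intervals, whose height carries no value. The 4 beta-globin lines lie at 5.49 and from 9.14 to 10.12, and the 16 alpha-globin lines run from 7.5 to 19.9.

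The interval also held sites that fit the matrix and had no peak. Of 6 sites above the limit, 3 were in peaks A, B and D and 3 were in none. By this matrix, the first one, the highest score of the interval belonged to one of the latter, a site between Olfr67 and Hbb-bt. That site, on the plus strand, scored 21.53 and was the only core motif site of the interval without a mismatch. It lay 13681 bp from peak B, and every 32-base word within 100 bp of it occurs once in the genome. The first matrix was trained only on sites without a mismatch. The lead of this site over those with a mismatch thus partly follows from how that matrix was built. The other unoccupied sites scored 11.93, between Olfr65 and Olfr631, and 10.01, within Olfr66. The retrained matrix gave these 3 sites 20.11, 19.12 and 18.6 in the same order, beside 20.89, 19.49 and 20.3 for peaks A, B and D. By that matrix the site between Olfr67 and Hbb-bt was thus below the sites of peaks A and D. The 3 unoccupied sites are printed for comparison with the occupied ones above, on the strand of the motif. Core bases are in capitals, and the coordinates are those of the 12 core bases.
Between Olfr67 and Hbb-bt, plus strand, chr7:103793094-103793105: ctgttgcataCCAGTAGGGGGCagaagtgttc
Between Olfr65 and Olfr631, minus strand, chr7:103913180-103913191: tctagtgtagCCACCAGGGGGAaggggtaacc
In Olfr66, plus strand, chr7:103883241-103883252: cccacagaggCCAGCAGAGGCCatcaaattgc
Shares in peaks are given for the first matrix alone, and none is given here for the retrained one. On Chromosome 7, 71.9% of the 352 sites that scored at least 21.53 were in a peak (95% Wilson interval 67.0% to 76.3%). Of the 1773 sites that scored 10 to 15, the range of the other 5 sites of the interval, 20.4% were in a peak (18.6% to 22.3%). Over all sites above the limit the share was 16.5% of 6317, and over core motif sites without a mismatch in the genome it was 30.3% of 22944. Within the span from Hbb-bt to Hbb-y no site was above the limit, and 31.0% of stretches of that length on Chromosome 7 had none either. An unlisted site may have had reads that did not reach the authors' threshold, and the list does not show them.

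**Figure D3:**
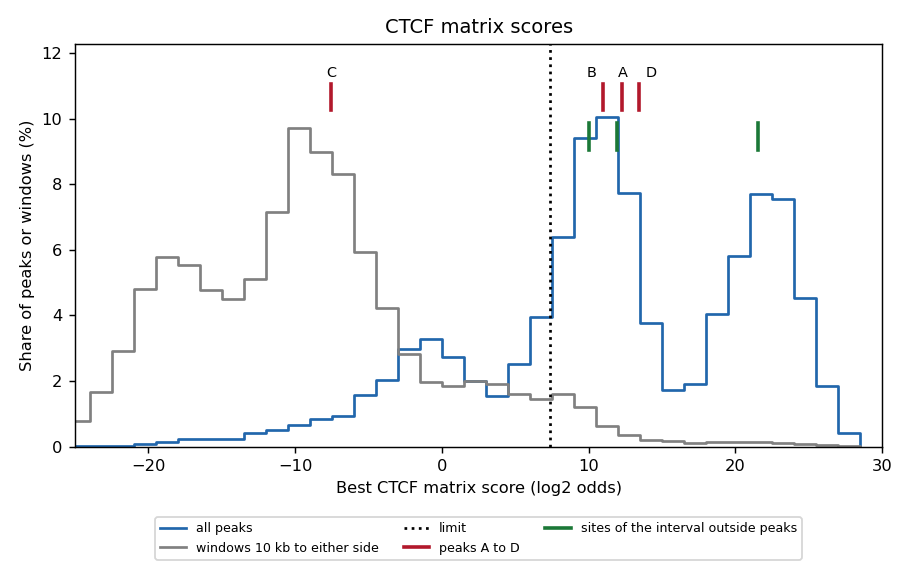
Best CTCF matrix score (x axis, log2 odds) of all peaks (blue) and of windows of equal width 10 kb to either side (grey), as the share of peaks or windows per bin of 1.5 (y axis); scores under the axis range are not drawn. Red lines mark peaks A to D, green lines the 3 sites of the interval outside peaks, and the dotted line the limit of 7.39; the height of these lines carries no value. Peak C lies among the side windows, and the highest of the unoccupied sites, at 21.53, lies in the upper group of peak scores. The matrix was trained only on sites without a core mismatch, so it scores such sites higher.

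Between neighboring peaks the distances were 94.9 kb from A to B, 66.2 kb from B to C and 69.7 kb from C to D, measured between midpoints. Of all neighbor distances, 69.9%, 60.7% and 62.0% were shorter than these, with a median of 43.9 kb. The 7 beta-globin records lay between B and C, together with the processed pseudogene Gm15115, 7 olfactory receptor records lay between A and B, and 5 lay between C and D. Motifs of A and B faced each other, which was 1 of 3 neighboring pairs. Facing pairs made up 25.6% of the 18925 neighboring pairs over all peaks, and pairs that faced away from each other made up 25.6% as well. Both remaining pairs include peak C, whose strand rests on a match below the limit. With peak C left out, B and D are both on the minus strand, 135.9 kb apart.

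The next peaks outside the interval were far off on both sides. Peak A was 792.3 kb from the next peak to its left (chr7:102919446-102920265), which had a fold enrichment of 10.44, and 97.2% of all neighbor distances were shorter. Of the 63 gene records between them, 53 were olfactory receptor records. Peak D was 257.1 kb from the next peak to its right (chr7:104199686-104200404), with 17 olfactory receptor records among 23 between them, and 89.1% of neighbor distances were shorter. That right peak reached a fold enrichment of 21.54 (−log10 p-value 46.585), above all 4 peaks of the interval. These outer peaks were 1280.2 kb apart, with 82 olfactory receptor records among 108, and A to D were the 4 peaks between them.

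Of the beta-globin genes, Hbb-bt alone was within 10 kb of a peak, with its TSS at 6558 bp (peak B). Over all protein-coding genes the share was 29.3%. At 1 kb the count was 0 of 5, as against 8.59% of protein-coding genes, and at 50 kb it was 5 of 5, as against 67.7%. Hbb-bs, the other adult gene, was 20658 bp from peak B. The embryonic genes Hbb-y and Hbb-bh1 were 19777 bp and 29829 bp from peak C, and Hbb-bh2 was 32473 bp from it. The pseudogene Hbb-bh3 was nearest to peak B at 26285 bp, and Hbb-bh0 to peak C at 22845 bp. The adult genes were thus nearest to the peak downstream of the cluster and the embryonic genes to the weaker one upstream of it, as their order along the chromosome sets.

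The olfactory receptor records of the interval had 3 of 24 TSSs within 10 kb of a peak (12.5%, 95% Wilson interval 4.34% to 31.0%). Olfr633 was 1100 bp and Olfr632 8269 bp from peak D, and Olfr243 was 2090 bp from peak A. Over all 1407 olfactory receptor records the share was 4.41%, and over the 293 of Chromosome 7 it was 7.51% (5.01% to 11.1%). None of the 24 had a peak within 1 kb, and 21 had one within 50 kb, beside 0.284% and 21.1% of all olfactory receptor records. Neighboring records share a peak and are not independent. Of the other pseudogenes, Gm45655 was 2862 bp from peak D, Dnajc19-ps 9393 bp from peak C, Gm15115 22.2 kb from peak B and Gm4886 33.8 kb from peak D.

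As a stretch of genome the interval held 11.7 peaks per Mb (95% exact Poisson interval 3.2 to 30.1), beside 9.21 on Chromosome 7 and 7.19 in all. The autosomes were cut into 7045 tiles of the interval's length, of which 30.2% held 4 or more peaks and 33.1% held none, with a median of 2. Of the 64 tiles with 10 or more olfactory receptor records, 5 (7.81%) held 4 or more peaks and 60.9% held none, with a median of 0. The interval was thus within the common range of the genome and near the upper end among tiles rich in olfactory receptor genes. The interval was laid around chosen genes, while the tiles were not.

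**Figure D4:**
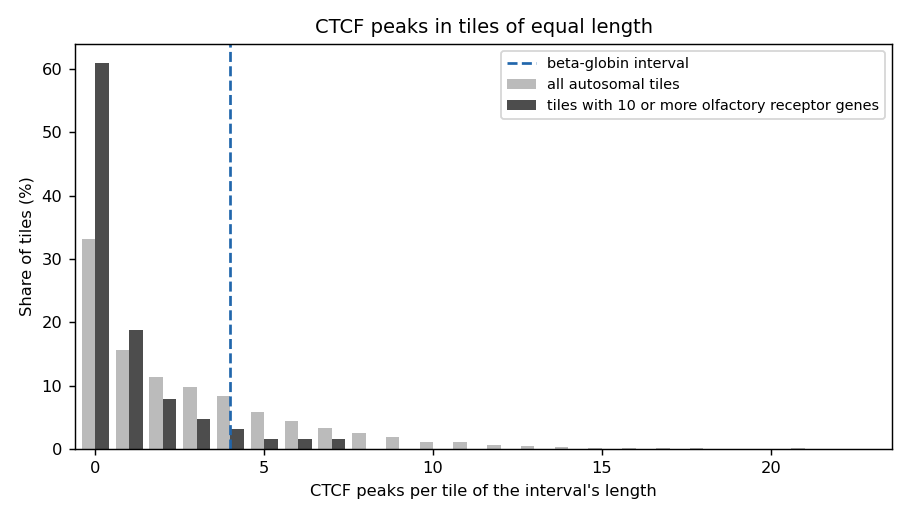
Number of CTCF peaks (x axis) in autosomal tiles of 340693 bp, as a share of all 7045 tiles (light bars) and of the 64 tiles with 10 or more olfactory receptor records (dark bars; y axis, percent). The dashed line marks the 4 peaks of the beta-globin interval. Tiles with 0 peaks make up 33.1% of the light and 60.9% of the dark bars.

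Repeated sequence matters here because the authors kept reads that map to several places. A word of 32 bases that occurs once in the genome stands for a read that can be placed. Peaks B and C had only such words (100% of them). Peak A had 85.4% and peak D 86.0%, and within 100 bp of the core motif the shares were 86.2% and 100%. The motif of peak A lies in sequence masked as a repeat. On Chromosome 7, 57.5% of peaks were wholly unique, and 11.2% had a lower share than peak A. Among the genes, Hbb-bt and Hbb-bs had 25.6% and 30.0% unique words, with at most 2 copies of any, and the other beta-globin records had 100%. Over the span from Hbb-bt to Hbb-y 76.4% of words were unique, beside 79.0% over the interval. The part of repeats in the values of peaks A and D was not tested.

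**Figure D5:**
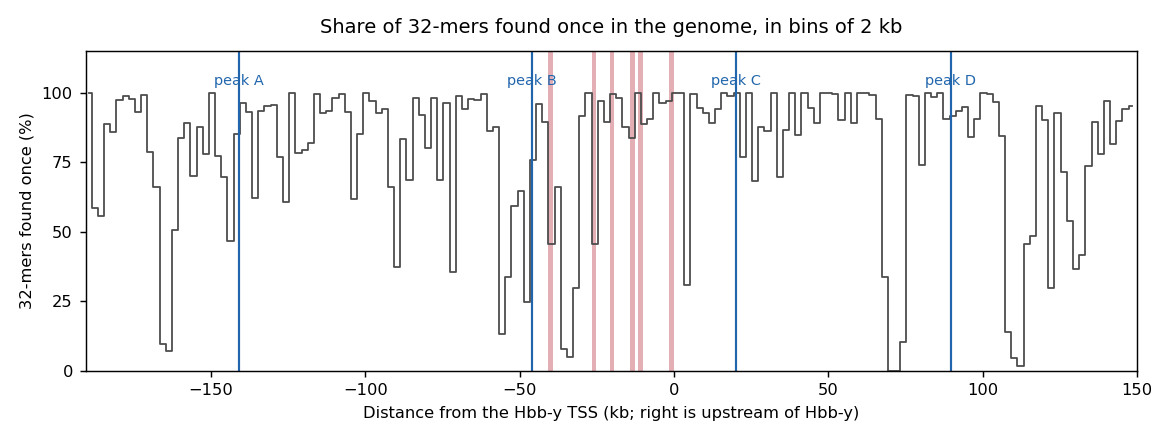
Share of 32-base words that occur once in the genome, in bins of 2 kb (y axis, percent), by distance from the Hbb-y TSS in kb (x axis, upstream to the right). Blue lines mark peaks A to D and red bands the beta-globin records. The share falls at Hbb-bt and Hbb-bs, with 25.6% and 30.0% unique words over the genes. Between these genes it falls further, to 7.77% and 5.03% in the bins at −35.69 and −33.69 kb. At the embryonic genes it stays high.

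The alpha-globin cluster, which includes the genes for the partner chains of hemoglobin, gave a comparison of the same kind. The genes listed for it were Hba-a1, Hba-a2, Hba-x, Hbq1a and Hbq1b. Their interval, built by the same rule (chr11:32126400-32450873, 324.5 kb), held 16 peaks, or 49.3 per Mb (28.2 to 80.1), beside 4 peaks at the beta-globin genes. The Poisson intervals of both densities cover counting error only, and the difference between the densities was not tested. The median fold enrichment was 13.54 there and 9.465 at the beta-globin genes. Of the alpha-globin peaks 13 of 16 were among the 50% with the highest −log10 p-value, 6 held the core motif without a mismatch, and 1 each lay over the TSSs of Hbq1b (fold enrichment 14.36) and Hbq1a (16.64). No peak had Hba-a1 or Hba-a2 as its nearest listed gene. The best matches of the peaks at Hbq1b and Hbq1a had the same score, 20.34. The share of unique words was not computed for the alpha-globin peaks, so the part of repeated sequence in their number and values was not tested. The share with the core motif without a mismatch, 37.5% there, was near the 35.6% of all peaks. Of the 4 beta-globin peaks 0 were in the stronger 50%, 0 held that motif and 0 lay over a TSS, and counts out of 4 are too few to set against shares of 16.

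Of 12 genes known to act on globin genes, 6 had a TSS within 10 kb of a peak, beside 29.3% of protein-coding genes. Klf1, an erythroid activator of the adult beta-globin gene, had one at 812 bp with a fold enrichment of 16.97. Sox6, which takes part in silencing embryonic globin genes, had one at 1246 bp (16.64), and Zfpm1, the partner of GATA1 also called FOG1, at 8396 bp (16.64). These peaks were each stronger than any of the beta-globin interval. Nfe2, a subunit of a factor that binds the locus control region, had a peak at 2686 bp (6.2), Tal1 at 8108 bp (9.11), and Ldb1, which holds enhancer and promoter together, at 8307 bp (6.53). Lmo2, Myb, Bcl11a, Zbtb7a and Gata1 had their nearest peak at 24034 to 38951 bp, and Lin28b at 112.6 kb.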

How the data were processed

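CTCF ChIP-seq peaks of 1 LSK library were used as deposited. Per the study's methods the authors mapped reads with Bowtie to mm10, allowed multiply mapping reads, removed ChrM and unplaced chromosomes, and called peaks with MACS. The submitters' processing notes name Bowtie 1.0.0, while the study's methods name an earlier version, and the difference was not reconciled. For MACS, settings and control were not given in the sources used here. Fold enrichment by the authors is a linear ratio. The authors' −log10 p-value was used as deposited. The q-value column of the authors has no stated scale and is not printed. The list holds no read counts. A read total for the library is listed in the study's supplement and was not used here, and intervals cover counting error only.

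The steps computed here used matplotlib 3.10.9, pandas 2.3.3, scipy 1.17.1 and numpy 2.4.6 in Python 3.11.15. Sequence and repeat masking came from GRCm38.p6, the assembly behind mm10, and genes from GENCODE M21. The CTCF core motif (12 bp, with degenerate letters) was searched on both strands. A matrix of 32 columns used a pseudocount of 1 and log2 odds against equal base shares. It was trained on 6475 core motif sites without a mismatch in peaks of the other chromosomes, and its limit set on 37854 side windows. Words of 32 bases were counted over both strands of the 19 autosomes, X and Y. The motif, matrix and word steps were tested on simulated data. TSSs were the 5′ ends of gene records. The genes, lists and tests were chosen with earlier results of these data known. Genes named were all records of the interval that are not olfactory receptors, the neighbors of each peak, and the listed regulators. Further olfactory receptor records and the more distant regulators were named after their values were seen. Alternatives were a stricter set of peaks, other distances, mismatches, central 200 bp, 24-base words, and a retrained matrix added after the data were seen.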

Additional observations from a re-analysis of the deposited data

How the results depend on the processing

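All 4 peaks were found when only midpoints counted and with 100 kb or 300 kb to either side, with a median fold enrichment of 9.465 each time. At 100 kb peak A counted only by an overlap at its edge. Its midpoint, 100324 bp from the end of Hbb-bt, lay outside. Among the 50% of peaks with the highest −log10 p-value, 0 peaks were left in the interval, and with them 0 beta-globin genes, 0 olfactory receptor records and 0 facing pairs, and no median could be given. Peaks with the core motif went from 0 to 3 with 1 mismatch, 4 with 2 mismatches, 3 by the matrix limit and 3 by the retrained matrix, which called 67.7% of all peaks, and stayed at 0 in the central 200 bp. Within 1 kb of a TSS the counts were 0 beta-globin genes, 0 olfactory receptor records and 1 regulator, and within 50 kb they were 5, 21 and 11. Over all protein-coding genes these shares were 8.59% and 67.7%, and over all olfactory receptor records 0.284% and 21.1%. Core motif sites outside peaks rose from 1 to 30 with 1 mismatch. For sites with 1 mismatch no share in peaks over the genome is given here, so the 30 cannot be set against one. The share of unique words was 93.0% (median of 4 peaks) with 32 bases and 88.0% with 24. The facing pair was also found by fewest mismatches and by the retrained matrix. No paired analysis was possible because 1 library alone has a file. The peaks have no replicate, and sites below the authors' threshold were not listed.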
